A study of Homo sapiens with 4 samples.

Results

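The mitochondrial ribosomal protein genes were examined in SW620 cells, a colorectal cancer cell line, with and without introduced GAP43. The family was chosen with earlier results of these data known. Its members were taken by annotation and symbol alone. They are all protein-coding genes of the expression table named MRPL (large subunit) or MRPS (small subunit), then a number and at most 1 letter. This gave 77 of the 33845 genes listed, 48 MRPL and 29 MRPS. The 4 libraries came from GAP43-overexpressed SW620 cells stably transfected with Flag-GAP43 plasmids (2 libraries, GAP43 replicates 1 and 2) and from control SW620 cells stably transfected with control plasmids (2 libraries, control replicates 1 and 2). All cells grew in RPMI1640 medium with fetal calf serum and were at passages 12 to 15. The study's methods state that the plasmid confers neomycin resistance, and each group is a separately transfected line, so other differences between the lines cannot be told apart from effects of GAP43. Whether each line was a clone or a pool, and whether the libraries of a group came from separate cultures, is not given in the sources used here, so the spread behind each p-value could be technical.

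The mitochondrial ribosome translates the few mRNAs of the mitochondrial genome, all of which code for subunits of the respiratory chain and ATP synthase. Its rRNAs come from the mitochondrial genome, whereas every one of its proteins is encoded in the nucleus, made on cytosolic ribosomes and imported. Many of these proteins have a relative in the bacterial ribosome, and the others were added in mitochondria, where the ribosome carries more protein and less RNA than its bacterial relative.

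In the GAP43 libraries most members lay below the controls, and the large and small subunit lists had similar medians. The median log2 fold change was -0.45 for 46 MRPL genes and -0.38 for 28 MRPS genes, with a median ratio of GAP43 to control FPKM of 0.735 and 0.770. FPKM count the fragments of a gene relative to its length and to the size of the library, and log2 fold changes are differences of mean log2(FPKM + 1), which understate the change of low genes. MRPL1 and MRPL12 had the lowest log2 fold changes among the large subunit genes, and MRPS10 among the small subunit genes. No member passed an adjusted p under 0.05 by limma with Benjamini-Hochberg adjustment over 13507 genes. The same was true of every gene tested, and the smallest adjusted p was 0.692. At an unadjusted p under 0.05, 19 of 74 members tested were lower and 0 were higher by limma, against 2.84% and 3.05% of all genes tested. With voom on recovered fragments 27 were lower and 0 higher, against 3.66% and 2.42%. That fit used the library sizes implied by the deposited FPKM rather than the summed fragments, so it kept the same scaling between libraries. Counts of lower members below use the unadjusted p under 0.05, unless another is named.

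The depth was similar in 3 libraries and smaller in GAP43 replicate 2. Recovered fragments summed to 17473071 in that library and to between 20843857 and 21883137 in the others. GAP43 itself was at 4.404 and 4.14 FPKM in the controls and at 16.3 and 9.89 FPKM where it had been introduced, as labelled in all 4 libraries. Of 11 colorectal epithelial markers, 8 reached a mean of 1 FPKM. Markers of fibroblasts and leukocytes reached it for 1 gene each (LUM and LYZ) and endothelial markers for none. Of 5 fibroblast markers, COL3A1 was at 0 in all 4 libraries, DCN was at 0 in 3 of them, and COL1A1 (0.327 to 0.83 FPKM) and PDGFRB (0.181 to 0.553 FPKM) were low.

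Promoters are shown for 6 members, chosen with their values known, as examples of the letters. The 6 do not stand for all members: all but MRPL12 hold a match. In the wider window described below, 30 of 68 members held none. MRPL1, MRPS35, MRPS6 and MRPS25, which are not shown, held no match in the same 150 bases. They are the 150 bases before the RefSeq start of each gene (GRCh38.p14), written in the direction of transcription. Capitals mark a match to CCGGAAG, the core recognised by ETS factors such as GABP, or to AAGATGGCG, recognised by YY1, on either strand. MRPL12 holds neither of them here and MRPL52 holds the YY1 letters at 2 places. MRPL54, MRPS10 and MRPS23 hold the ETS letters at 1 place, and MRPS34 holds them at 3.
MRPL12 (chr17:81703217-81703366, plus strand): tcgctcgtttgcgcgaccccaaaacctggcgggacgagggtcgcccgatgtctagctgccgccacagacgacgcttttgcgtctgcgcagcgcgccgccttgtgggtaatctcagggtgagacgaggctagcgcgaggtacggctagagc
MRPL54 (chr19:3762532-3762681, plus strand): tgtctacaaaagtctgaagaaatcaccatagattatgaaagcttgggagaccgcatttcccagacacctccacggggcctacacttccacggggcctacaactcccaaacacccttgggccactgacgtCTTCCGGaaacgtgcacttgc
MRPL52 (chr14:22829737-22829886, plus strand): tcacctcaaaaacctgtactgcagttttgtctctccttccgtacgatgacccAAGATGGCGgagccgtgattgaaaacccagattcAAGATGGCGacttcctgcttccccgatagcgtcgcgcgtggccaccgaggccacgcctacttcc
MRPS10 (chr6:42217862-42218011, minus strand): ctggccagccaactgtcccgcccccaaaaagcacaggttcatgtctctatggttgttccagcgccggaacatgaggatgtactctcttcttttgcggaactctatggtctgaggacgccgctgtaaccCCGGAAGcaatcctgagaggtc
MRPS23 (chr17:57850045-57850194, minus strand): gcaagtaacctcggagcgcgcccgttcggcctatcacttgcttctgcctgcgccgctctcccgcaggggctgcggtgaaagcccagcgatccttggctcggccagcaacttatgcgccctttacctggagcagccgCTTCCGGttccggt
MRPS34 (chr16:1773135-1773284, minus strand): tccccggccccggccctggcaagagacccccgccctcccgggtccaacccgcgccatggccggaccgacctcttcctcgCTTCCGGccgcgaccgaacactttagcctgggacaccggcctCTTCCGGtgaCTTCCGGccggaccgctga

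A promoter of 300 bases (250 before the start and 50 after) was found for 68 of the 77 members. The ETS letters occurred in 28 of these 68 (41.2%), against 10.7% of 27305 promoters in the RefSeq table and 20.8% of 8322 promoters of protein-coding genes tested here. The YY1 letters occurred in 13 (19.1%), against 1.85% and 4.41%. The palindrome recognised by NRF1 (GCGCA followed by TGCGC), a regulator of many nuclear genes of mitochondria, occurred in 1 member, MRPL17 (1.47%, against 1.36% and 2.46%). Of the 68 members, 38 held at least 1 of the 3 motifs. MRPL38, MRPL52, MRPS10 and MRPS18A were the 4 that held both ETS and YY1 letters, and in none of these did the letters of the motifs overlap. In MRPL52 the ETS letters, and in MRPS10 the YY1 letters, lie outside the 150 bases shown above. The median log2 fold change was -0.49 for the 27 tested members with the ETS letters and -0.38 for the 38 without them. For YY1 it was -0.38 with (10 members) and -0.44 without (55 members). By subunit, the ETS medians with and without were -0.49 (15) and -0.41 (24) for MRPL, and -0.46 (12) and -0.30 (14) for MRPS. The YY1 medians with and without were -0.38 (6) and -0.46 (33) for MRPL, and -0.37 (4) and -0.37 (22) for MRPS. Members without any of the motifs ranged widely. MRPL1 and MRPL12, at the low end, held none, as did MRPS25 and MRPS6, whose log2 fold changes were 0.03 and 0.13. Differences by motif were not tested. These matches are letters in a window and were not tested as sites.

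Levels of the large subunit genes spanned a wide range. The mean over 4 libraries ran from 0.555 FPKM for MRPL46 to 114 FPKM for MRPL51, with a median of 22.9 FPKM over the 46 tested. MRPL51, a mitochondria-specific protein, had 137 and 125 FPKM in the control and 118 and 76.9 FPKM in the GAP43 libraries. MRPL18, of the family that binds 5S rRNA in bacteria, had 112 and 105 FPKM in the control and 102 and 79.5 FPKM in the GAP43 libraries. MRPL14, which lies at the interface with the small subunit, had 90.7 and 91.1 FPKM in the control and 79.7 and 49.8 FPKM in the GAP43 libraries. In these 3, the most abundant large subunit mRNAs, the groups did not overlap. None passed the test (log2 fold changes -0.45, -0.27 and -0.52 by limma, unadjusted p of 0.142, 0.275 and 0.101). Both GAP43 libraries also lay below both controls in 41.3% of protein-coding genes of 10 to 100 FPKM and 68.5% at 100 FPKM or more.

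Of 46 large subunit genes tested, 45 had a log2 fold change below 0, against 55.5% of all genes tested. The range was -0.87 to 0.24. At an unadjusted p under 0.05, 13 were lower, against 2.84% of all genes tested (383 of 13507), and 0 were higher, against 3.05%. In 40 of the 46, both GAP43 libraries lay below both controls, against 24.1% of all genes. In 0 did both lie above, against 17.1%. Among the 4119 protein-coding genes of 10 to 100 FPKM, a level more like that of the members, 4.73% were lower at this p and 0.85% higher. In 41.3% of these genes both GAP43 libraries lay below both controls and in 7.19% above. MRPL33, MRPL53, MRPL22, MRPL42, MRPL43 and MRPL50 were the 6 whose groups overlapped.

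MRPL1, which forms the mobile arm beside the site where the spent tRNA leaves, had 24.8 and 34.5 FPKM in the control and 17.6 and 13.8 FPKM in the GAP43 libraries. MRPL1 (ENSG00000169288, GRCh38 chromosome 4 from 77862520 to 77952790, plus strand) was lower in both GAP43 libraries than in either control, and its controls differed from each other by more than its GAP43 libraries did. The mean was 15.7 ± 2.64 FPKM (SD, n = 2) with GAP43 and 29.7 ± 6.86 FPKM (SD, n = 2) without. The log2 fold change was -0.87 (standard error 0.23), with an unadjusted p of 0.00892 and an adjusted p of 0.692 by limma.

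The stalk of the large subunit recruits the GTPases that drive elongation, and is built from MRPL10, MRPL11 and MRPL12. MRPL12 (ENSG00000262814, chromosome 17 from 81703357 to 81707526, plus strand), the stalk protein that contacts those GTPases, had 15.8 and 14.05 FPKM in the control and 7.28 and 9.32 FPKM in the GAP43 libraries. Its lowest value came from GAP43 replicate 1, whereas that of both other stalk genes came from GAP43 replicate 2. Its log2 fold change was -0.78 (standard error 0.19, unadjusted p of 0.00539 and adjusted p of 0.692 by limma). MRPL11, which lies at the stalk base, had 46.7 and 50.6 FPKM in the control and 40.7 and 28.1 FPKM in the GAP43 libraries (log2 fold change -0.51, unadjusted p of 0.0709). MRPL10, which anchors copies of MRPL12, had 17.4 and 17.96 FPKM in the control and 15.1 and 14.2 FPKM in the GAP43 libraries (log2 fold change -0.25, unadjusted p of 0.174). All 3 stalk genes lay below control in both GAP43 libraries, and MRPL12 alone was under the threshold. The shares of protein-coding genes of 10 to 100 FPKM were 41.3% below both controls and 4.73% lower. Differences between stalk genes were not tested.

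Around the peptidyl transferase centre, where the peptide bond forms, 1 of 4 genes was lower. Of protein-coding genes of 10 to 100 FPKM, 4.73% were lower and 41.3% had both GAP43 libraries below both controls. MRPL16, which touches the incoming tRNA, had 40.0 and 40.9 FPKM in the control and 30.6 and 25.9 FPKM in the GAP43 libraries (log2 fold change -0.51, unadjusted p of 0.034). The others, MRPL2, MRPL3 and MRPL27, had log2 fold changes of -0.35, -0.58 and -0.34, and in each both GAP43 libraries lay below both controls. MRPL3, the most abundant of them, had 61.6 and 78.0 FPKM in the control and 55.4 and 38.3 FPKM in the GAP43 libraries, with an unadjusted p of 0.0634.

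The exit tunnel leads the new chain to the inner membrane. Of its 8 listed genes 4 were lower, against 2.84% of all genes tested and 4.73% of protein-coding genes of 10 to 100 FPKM. MRPL4, which lines the tunnel wall, had 23.2 and 22.2 FPKM in the control and 17.0 and 14.9 FPKM in the GAP43 libraries (log2 fold change -0.49, unadjusted p of 0.0306). MRPL17 had 46.6 and 50.05 FPKM in the control and 37.8 and 28.2 FPKM in the GAP43 libraries (-0.55, p of 0.0424). MRPL24 had 36.0 and 33.0 FPKM against 27.0 and 20.1 FPKM (-0.54, p of 0.0401). The fourth was MRPL23, a protein of the tunnel rim, at 31.7 and 31.3 FPKM in the control and 24.8 and 20.2 FPKM in the GAP43 libraries (-0.48, p of 0.0439). In these 4 the controls lay close together and GAP43 replicate 2 was the lowest library. The other 4 had log2 fold changes from -0.49 (MRPL47) to -0.30 (MRPL44), among them MRPL45, which ties the ribosome to the inner membrane, at 43.3 and 47.3 FPKM in the control and 42.9 and 28.5 FPKM in the GAP43 libraries. MRPL45 (unadjusted p of 0.187) showed little distance between GAP43 replicate 1 and the lower control. MRPL22 was the exception within the group, since its GAP43 replicate 1 (13.4 FPKM) lay between the controls (13.1 and 13.9 FPKM).

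The central protuberance faces the small subunit, and in mitochondria it is built largely of proteins without bacterial relatives. MRPL48 had 8.92 and 10.9 FPKM in the control and 7.71 and 5.58 FPKM in the GAP43 libraries (log2 fold change -0.52, unadjusted p of 0.0431). MRPL40 had 21.4 and 26.5 FPKM against 18.9 and 14.1 FPKM (-0.52, p of 0.0545). Both thus moved by the same amount, on either side of the threshold. MRPL38 and MRPL46, the other listed genes of this structure, lay below 1 FPKM and were not tested.

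The remaining lower genes of the large subunit were MRPL15, MRPL20 and MRPL21, which bind rRNA in the body of the subunit, and MRPL52 and MRPL54, which are mitochondria-specific. MRPL54 (chromosome 19 from 3762664 to 3768575, plus strand) had 27.7 and 37.0 FPKM in the control and 22.4 and 17.0 FPKM in the GAP43 libraries (log2 fold change -0.68, standard error 0.23, unadjusted p of 0.0245). MRPL52, whose promoter holds the ETS and YY1 letters, had 26.4 and 27.3 FPKM against 20.7 and 15.4 FPKM (-0.56, p of 0.0314). MRPL20 had 28.3 and 27.2 FPKM in the control and 20.8 and 16.0 FPKM in the GAP43 libraries (-0.58, p of 0.0248). In MRPL52 and MRPL20 the controls differed little, whereas in MRPL54 control replicate 2 stood above control replicate 1. MRPL15 had 52.3 and 58.9 FPKM against 42.2 and 31.8 FPKM (-0.59, p of 0.0354). MRPL21 had 36.3 and 38.2 FPKM against 27.5 and 23.5 FPKM (-0.53, p of 0.0276). By origin, the 30 tested large subunit genes with a bacterial relative had a median log2 fold change of -0.47 and the 16 mitochondria-specific ones -0.42, so the lists overlapped widely.

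The 3 large subunit genes with the highest log2 fold changes were MRPL53, MRPL33 and MRPL55. MRPL53 had 1.45 and 0.732 FPKM in the control and 1.05 and 1.87 FPKM in the GAP43 libraries (log2 fold change 0.24, unadjusted p of 0.452). MRPL33 had 38.0 and 40.4 FPKM in the control and 41.8 and 28.998 FPKM in the GAP43 libraries (-0.17, p of 0.501). MRPL55 had 11.4 and 10.6 FPKM in the control and 10.5 and 8.26 FPKM in the GAP43 libraries (-0.22, p of 0.279). MRPL33 was thus highest in GAP43 replicate 1 and lowest in GAP43 replicate 2, and MRPL53, near the filter, was lowest in a control.

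**Figure D1:**
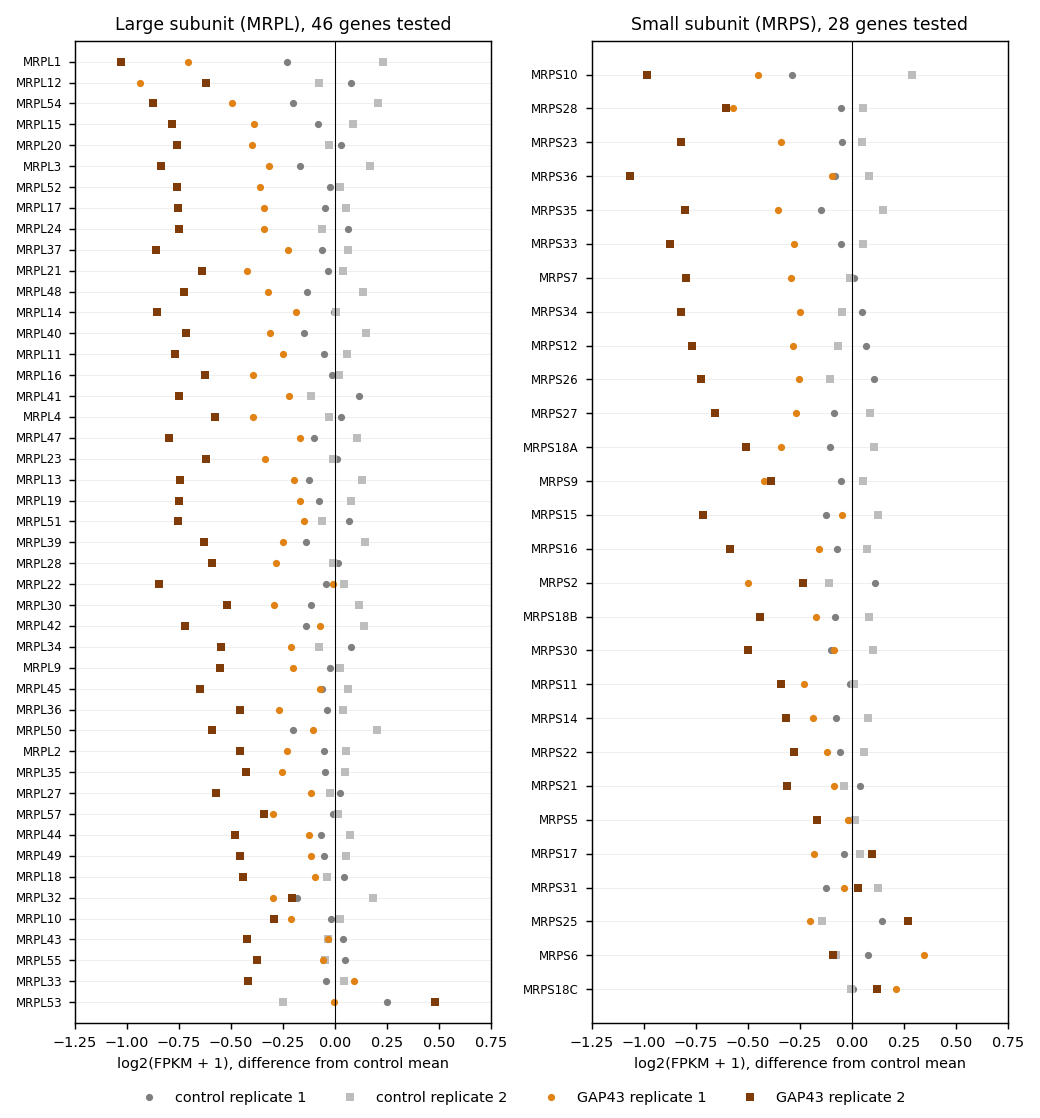
Each tested member is a row, ordered by log2 fold change, with the large subunit on the left and the small subunit on the right, and each of the 4 points is a library's log2(FPKM + 1) minus the control mean of that gene. The points of GAP43 replicate 2 are the leftmost in 43 of 46 MRPL rows and in 22 of 28 MRPS rows, and those of GAP43 replicate 1 mostly lie between them and the controls.

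The 2 GAP43 libraries lay at different distances from the controls. Relative to the control mean, the median MRPL gene differed by -0.24 in the first GAP43 library and by -0.63 in the second, and the median MRPS gene by -0.22 and -0.50 (log2 scale). GAP43 replicate 2 was the lowest of the 4 libraries for 43 of 46 MRPL and 22 of 28 MRPS genes, against 43.8% of all genes tested and 65.3% of protein-coding genes of 10 to 100 FPKM. GAP43 replicate 1 alone lay below both controls for 40 MRPL and 23 MRPS genes, against 36% of all genes tested and 50% of protein-coding genes of 10 to 100 FPKM. Summed over all 48 MRPL genes, the libraries held 1562 and 1639 FPKM in the control and 1346 and 1001 FPKM with GAP43. Summed over 29 MRPS genes they held 798.9 and 841.5 FPKM in the control and 693.8 and 524.4 FPKM with GAP43. As shares of recovered fragments the MRPL genes took 0.334% and 0.333% in the control and 0.295% and 0.244% with GAP43, and the MRPS genes took 0.194% in each control and 0.175% and 0.151% with GAP43. The shares were close in both controls, and the GAP43 libraries were further from each other than the controls were. Fewer cells of a type and less RNA per cell cannot be told apart in such bulk libraries.

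The count of lower genes changed with whichever library was left out. Without control replicate 2 it was 1 MRPL and 0 MRPS gene (background 0.57% of all genes), without control replicate 1 it was 3 and 1 (1.71%), and without GAP43 replicate 2 it was 6 and 3 (2.83%). Without GAP43 replicate 1 it rose to 41 and 16 (18.6%), a fit that takes its lone GAP43 sample to scatter as the controls do. With the replicate number as a block in the limma fit, 6 MRPL and 4 MRPS genes were lower (2.81%).

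The small subunit list follows the MRPS names. It thus includes MRPS18A and MRPS30, whose products sit in the large subunit, and MRPS36, treated below (log2 fold changes -0.42, -0.29 and -0.58). Of the 28 genes of this list tested, 25 had a log2 fold change below 0, against 55.5% of all genes tested. The range was -0.72 to 0.17. At an unadjusted p under 0.05, 6 were lower, against 2.84% of all genes tested, and 0 were higher, against 3.05%. In 21 of the 28, both GAP43 libraries lay below both controls, against 24.1% of all genes. In 1 (MRPS18C) both lay above, against 17.1%. Of protein-coding genes of 10 to 100 FPKM, 77.5% had a log2 fold change below 0. Of these genes 4.73% were lower and 0.85% higher, and 41.3% lay below both controls and 7.19% above. Levels ran from 0.170 FPKM for MRPS24 to 104 FPKM for MRPS34, with a median of 15.3 FPKM over the 28 tested. The 15 tested with a bacterial relative had a median log2 fold change of -0.37 and the 12 mitochondria-specific ones -0.44. That split puts MRPS18A and MRPS18B, whose proteins do not hold the place of bacterial S18, among the mitochondria-specific genes. With both counted among the bacterial relatives, a choice added after the data were seen, the medians were -0.37 (17 genes) and -0.48 (10 genes). MRPS36, named as a small subunit protein but found in the 2-oxoglutarate dehydrogenase complex rather than in human ribosome structures, was left out of this split. It had 26.4 and 29.8 FPKM in the control and 26.2 and 12.9 FPKM in the GAP43 libraries, so that GAP43 replicate 1 lay beside the lower control (log2 fold change -0.58, unadjusted p of 0.123 by limma).

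In the head of the small subunit, 3 of 4 tested genes were lower. The shares were 2.84% of all genes tested and 4.73% of protein-coding genes of 10 to 100 FPKM. MRPS10 (ENSG00000048544, chromosome 6 from 42206801 to 42217865, minus strand) had 40.2 and 60.3 FPKM in the control and 35.8 and 24.4 FPKM in the GAP43 libraries. Its mean was 30.1 ± 8.02 FPKM (SD, n = 2) with GAP43 and 50.3 ± 14.2 FPKM (SD, n = 2) without. The log2 fold change was -0.72 (standard error 0.28, unadjusted p of 0.0439 and adjusted p of 0.692 by limma). The groups of MRPS10 did not overlap, but its controls were far apart. MRPS7, whose bacterial relative starts the assembly of the head, had 30.9 and 30.6 FPKM in the control and 24.9 and 17.2 FPKM in the GAP43 libraries (-0.55, p of 0.0483). MRPS9, whose bacterial relative reaches to the peptidyl-site tRNA, had 15.9 and 17.1 FPKM in the control and 12.1 and 12.4 FPKM in the GAP43 libraries (-0.40, p of 0.0473). In MRPS9 the GAP43 libraries nearly coincided, unlike in most members. MRPS14 had a log2 fold change of -0.25 (unadjusted p of 0.187) and the remaining gene of the head, MRPS24, was not tested.

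Along the decoding centre and the mRNA path, 1 of 4 genes was lower, against 2.84% of all genes tested. MRPS12, the relative of the bacterial protein that checks codon pairing, had 34.5 and 31.4 FPKM in the control and 26.8 and 18.9 FPKM in the GAP43 libraries (log2 fold change -0.53, unadjusted p of 0.055). MRPS5, at the mRNA entry, had 11.6 and 11.9 FPKM in the control and 11.6 and 10.4 FPKM in the GAP43 libraries (-0.09, p of 0.592). MRPS11 had a log2 fold change of -0.28 (p of 0.117). MRPS28 had 1.75 and 1.97 FPKM in the control and 0.924 and 0.874 FPKM in the GAP43 libraries (-0.59, p of 0.0324). MRPS28 had the lowest ratio of GAP43 to control FPKM among the members tested, at 0.484, but also a mean of only 1.38 FPKM.

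The other lower small subunit genes were MRPS23 and MRPS33, both mitochondria-specific. MRPS23 (chromosome 17 from 57834781 to 57850056, minus strand) had 14.6 and 15.7 FPKM in the control and 11.7 and 8.12 FPKM in the GAP43 libraries (log2 fold change -0.58, standard error 0.21, unadjusted p of 0.0316). MRPS33 had 15.6 and 16.8 FPKM in the control and 13.2 and 8.39 FPKM in the GAP43 libraries (-0.58, p of 0.0477). In both the controls lay close together and GAP43 replicate 2 was the lowest library. The most abundant small subunit mRNAs, MRPS34, MRPS26 and MRPS35, code for mitochondria-specific proteins too. MRPS34 had 127 and 119 FPKM in the control and 103 and 68.9 FPKM in the GAP43 libraries (-0.54, p of 0.0835). MRPS35 had 76.1 and 93.5 FPKM against 65.6 and 47.9 FPKM (-0.58, p of 0.0537). MRPS26 had 94.4 and 81.5 FPKM against 73.4 and 52.7 FPKM (-0.49, p of 0.0884). The groups of these 3 did not overlap, and none passed the threshold. Among protein-coding genes, 41.3% at 10 to 100 FPKM and 68.5% at 100 FPKM or more had both GAP43 libraries below both controls.

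The highest log2 fold changes among small subunit genes were those of MRPS18C, MRPS6 and MRPS25, and none passed the threshold. MRPS6, at the platform of the subunit, had 14.5 and 12.9 FPKM in the control and 17.7 and 12.8 FPKM in the GAP43 libraries (0.13, unadjusted p of 0.565). MRPS25 had 13.7 and 11.1 FPKM in the control and 10.6 and 15.1 FPKM in the GAP43 libraries (0.03, p of 0.884). The GAP43 libraries of MRPS25 lay on either side of both controls. MRPS31 and MRPS17 were also near 0, at -0.00 and -0.04, whereas MRPS2 had GAP43 replicate 1 as its lowest library, with 20.5 and 17.4 FPKM in the control and 13.1 and 15.9 FPKM with GAP43 (-0.37, p of 0.0999).

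Human cells carry 3 paralogs of the bacterial S18 protein, and their products do not share a place: the MRPS18A protein sits in the large subunit, and those of MRPS18B and MRPS18C in the small one. MRPS18A had 18.4 and 21.5 FPKM in the control and 15.5 and 13.7 FPKM in the GAP43 libraries (log2 fold change -0.42, unadjusted p of 0.0563). MRPS18B had 48.5 and 54.4 FPKM in the control and 45.4 and 37.5 FPKM in the GAP43 libraries (-0.31, p of 0.177). MRPS18C had 1.013 and 0.9997 FPKM in the control and 1.32 and 1.18 FPKM in the GAP43 libraries (0.17, p of 0.488). MRPS18B was the most abundant paralog in every library and MRPS18C the least. In none of the 3 did the groups overlap, although MRPS18C was the one with the GAP43 libraries above. Over all genes tested, both GAP43 libraries lay below both controls in 24.1% and above in 17.1%. MRPS30, whose product also sits in the large subunit despite its name, had 15.8 and 18.2 FPKM in the control and 15.9 and 11.7 FPKM in the GAP43 libraries (-0.29, p of 0.209). Its GAP43 replicate 1 lay just above the lower control.

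**Figure D2:**
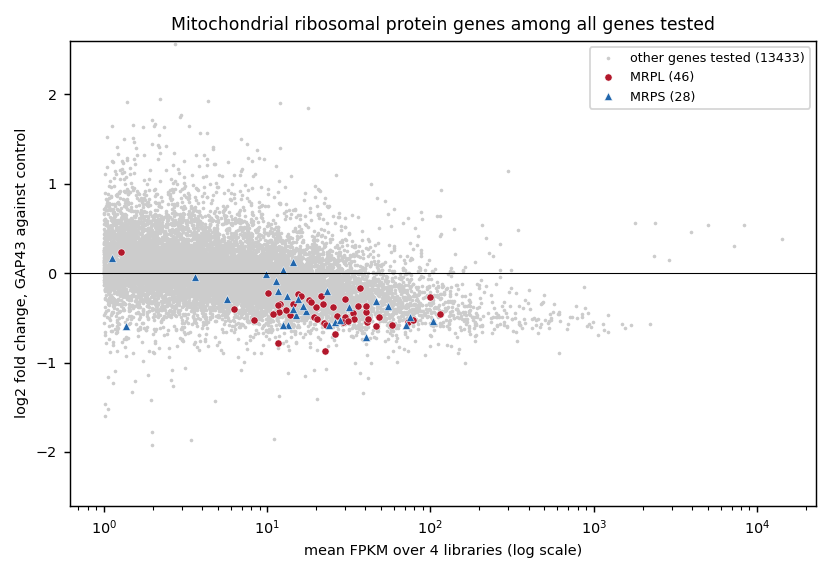
Each point is a gene with a mean of at least 1 FPKM, with its mean FPKM over 4 libraries on a log axis and its log2 fold change (GAP43 against control, log2(FPKM + 1)) on the vertical axis, for 46 MRPL, 28 MRPS and 13433 other genes. Most members lie between 10 and 100 FPKM and below 0, in a range where the cloud of other genes is itself centred below 0.

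The fold change moved with expression level over all protein-coding genes. Their median log2 fold change was 0.06 at 1 to 3 FPKM, -0.04 at 3 to 10 FPKM, -0.15 at 10 to 30 FPKM, -0.27 at 30 to 100 FPKM and -0.44 at 100 FPKM or more. For protein-coding genes of 10 to 100 FPKM it was -0.18, against -0.45 for MRPL and -0.38 for MRPS genes. Of these 4119 genes 77.5% had a log2 fold change below 0. The medians of both lists are therefore read beside this shift, and the part of expression level in them was not tested. Dividing each library's FPKM by its sum moved the median of all genes from -0.04 to 0.07, the MRPL median to -0.34 and the MRPS median to -0.27. In that scaling 10 MRPL genes and 1 MRPS gene were lower, against 1.58% of all genes.

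Few members were silent, and those with low values shared a feature of annotation. Of 77 members, 70 had a mean of at least 5 FPKM and 6 lay under 2 FPKM. Of these 6, MRPL46, MRPL38 and MRPS24 lay below the filter of 1 FPKM. MRPL38 had 1.06 and 0.664 FPKM in the control and 0.817 and 1.33 FPKM in the GAP43 libraries. MRPL46 had 0.464 and 0.483 FPKM in the control and 0.43 and 0.844 FPKM in the GAP43 libraries. MRPS24 had 0.0907 and 0.0396 FPKM in the control and 0.156 and 0.392 FPKM in the GAP43 libraries. In all 3 GAP43 replicate 2 was the highest library, the reverse of the order in most tested members.

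In GENCODE release 29 (GRCh38), exons of another gene covered at least 45.1% of the coding bases of each of these 6 genes, and the same was the case for only 4 of the other 71. The shares were 45.1% for MRPS18C, 53% for MRPS28, 64% for MRPL46, 92.2% for MRPS24, 94.1% for MRPL38 and 100% for MRPL53. Members with no such overlap (49 genes) had a median of 26.0 FPKM and a lowest value of 6.32 FPKM, those with up to 20% (14 genes) a median of 19.7 FPKM, those with 20 to 50% (6 genes) 17.4 FPKM, and those with 50% or more (8 genes) 1.33 FPKM. Over all protein-coding genes the medians were 3.52 FPKM without overlap (12072 genes) and 0.72 FPKM at 50% or more (958 genes). The covering gene was a read-through gene on the same strand for MRPS24 (URGCP-MRPS24), and CCDC142 for MRPL53. How the authors counted fragments shared by overlapping genes is not given in the sources used here, and the part of overlap in these low values was not tested.

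High overlap did not always go with a low value. MRPL30 (95.3% covered) had a mean of 13.004 FPKM and MRPL12 (96% covered, by the gene model AC139530.2) a mean of 11.6 FPKM, whereas MRPS17 (100% covered) had a mean of 3.60 FPKM. The values of MRPL12 are therefore uncertain to the extent that fragments could be assigned to the gene model that covers it. Without the 14 members covered by 20% or more, the median log2 fold change was -0.46 over 39 MRPL and -0.39 over 24 MRPS genes, and 11 and 5 were lower, against 2.84% of all genes tested, a choice made after the data were seen. Pseudogenes named after members numbered 24, of which 22 were processed copies, and 1 of them (MRPS18AP1, 1.36 FPKM) had a mean of at least 1 FPKM.

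**Figure D3:**
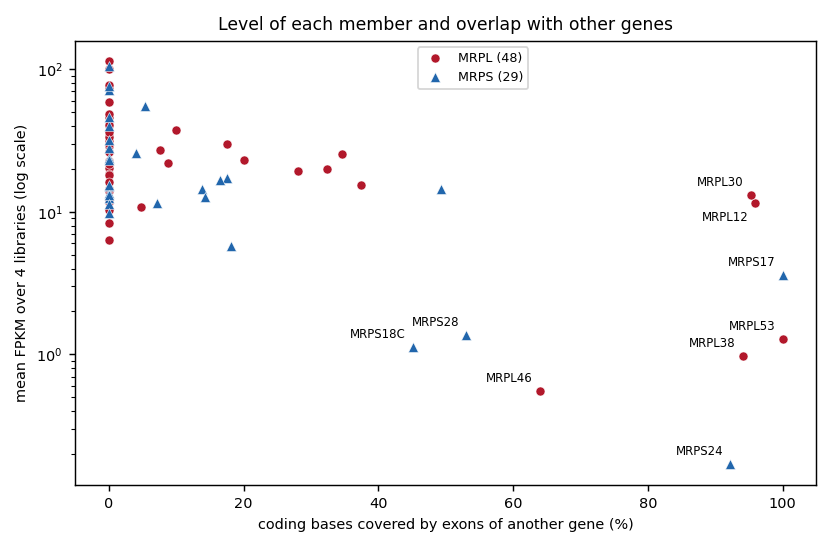
Each of the 77 members is a point, placed by the percentage of its coding bases that exons of another gene cover (GENCODE 29) and by its mean FPKM over 4 libraries on a log axis. Every member under 2 FPKM lies at 45.1% or beyond, while MRPL12 and MRPL30 lie near 100% with more than 10 FPKM.

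Ribosomal proteins whose symbols lack the MRPL or MRPS pattern lay near the same medians. The counts of this and the following lists are read against 2.84% lower and 24.1% below both controls over all genes tested. Of 6 such genes tested, 1 was lower, 5 had both GAP43 libraries below both controls, and the median log2 fold change was -0.41. ICT1, a peptidyl-tRNA hydrolase built into the large subunit, had 63.3 and 75.01 FPKM in the control and 47.1 and 35.6 FPKM in the GAP43 libraries (-0.74, unadjusted p of 0.0169). GADD45GIP1, a large subunit protein, had 41.5 and 35.3 FPKM against 31.9 and 18.3 FPKM (-0.64, p of 0.0655). AURKAIP1, a small subunit protein, had a log2 fold change of -0.45 (p of 0.0962).

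Genes that assemble the ribosome or serve its translation had smaller medians. Of 25 assembly genes, 2 were lower and 16 had both GAP43 libraries below both controls, with a median of -0.23. Of protein-coding genes of 10 to 100 FPKM, 4.73% were lower and 41.3% lay below both controls, with a median of -0.18. DDX28, an RNA helicase of large subunit assembly, had 18.3 and 20.5 FPKM in the control and 13.4 and 13.1 FPKM in the GAP43 libraries (-0.51, unadjusted p of 0.022). MPV17L2, an inner membrane protein needed for assembly, had 12.98 and 12.1 FPKM against 9.90 and 6.86 FPKM (-0.55, p of 0.0377). TRUB2, a pseudouridine synthase, had a log2 fold change of -0.45 (p of 0.0598). Of 18 translation factors, 0 were lower and 1 was higher, against 2.84% and 3.05% of all genes tested. Their median was -0.23, and 10 lay below both controls. MTRF1, a release factor, had 3.37 and 3.66 FPKM in the control and 5.20 and 5.11 FPKM in the GAP43 libraries (0.45, p of 0.029). TACO1, an activator of COX1 translation, had a log2 fold change of -0.49 (p of 0.0632) and GFM1, the elongation factor G of mitochondria, -0.36 (p of 0.0773). MTRF1 was thus the only listed translation factor under the threshold, and 1 such call among 18 genes is no result about this list.

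Genes of mitochondrial transcription and RNA handling (23 tested) had a median of -0.19, with 1 lower and 12 below both controls. These values lie near those of protein-coding genes of 10 to 100 FPKM (median -0.18, 4.73% lower and 41.3% below both controls), so they are no result about this list. SLIRP, which stabilises mitochondrial mRNAs, had 32.8 and 33.5 FPKM in the control and 25.4 and 21.5 FPKM in the GAP43 libraries (-0.49, unadjusted p of 0.0377). SSBP1, the single-stranded DNA binding protein of mitochondria, had a log2 fold change of -0.53 (p of 0.0571), and TFB2M, a transcription factor of the organelle, -0.35 (p of 0.094). Of 7 transcription factors of mitochondrial biogenesis tested, 0 passed the threshold, and the median was -0.18. NRF1 had 5.13 and 5.02 FPKM in the control and 4.99 and 3.59 FPKM in the GAP43 libraries (-0.21, p of 0.303). MYC had a log2 fold change of -0.35 (p of 0.18) and ESRRA of -0.19 (p of 0.302).

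Import genes, whose products carry ribosomal and other proteins into the organelle, had a median of -0.46 over 25 tested, with 9 lower and 20 below both controls. TIMM9, a small chaperone of the intermembrane space, had 10.0 and 10.2 FPKM in the control and 5.38 and 5.84 FPKM in the GAP43 libraries (-0.75, standard error 0.16, unadjusted p of 0.0027). TOMM22, a receptor of the outer membrane, had a log2 fold change of -0.64 (p of 0.0238) and TIMM8B of -0.71 (p of 0.0261). In TIMM9 the libraries of each group lay close together. Cytosolic ribosomal proteins had a median of -0.55 over 80 tested, with 6 lower and 74 below both controls, at a median level of 272 FPKM. At 100 FPKM or more, 3.74% of 321 protein-coding genes were lower and 68.5% lay below both controls.

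The genes of the mitochondrial genome, which the ribosome translates, lay on the other side of the controls. All 13 coding genes had a log2 fold change above 0, with a median of 0.54. In 11 both GAP43 libraries lay above both controls (9 with median-ratio size factors), against 17.1% of all genes tested. At an unadjusted p under 0.05 by limma, 2 were higher, against 3.05% of all genes. MT-CYB, of respiratory complex III, had 91.6 and 65.3 FPKM in the control and 109 and 199.96 FPKM in the GAP43 libraries (0.93, p of 0.036). MT-ND5, of complex I, had 74.9 and 65.2 FPKM against 93.3 and 123 FPKM (0.61, p of 0.0391). MT-ND6 had a log2 fold change of 0.63 (p of 0.0556). Among these 3, GAP43 replicate 2 was the highest library, as it was the lowest for most ribosomal protein genes. The rRNAs of the mitochondrial ribosome, MT-RNR1 and MT-RNR2, carry short tails at most and were measured in poly(A) libraries. MT-RNR2 had 110 and 233 FPKM in the control and 172 and 318 FPKM in the GAP43 libraries (0.54, p of 0.274), so its groups overlapped. MT-RNR1 had a log2 fold change of 0.25 (p of 0.536).

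**Figure D4:**
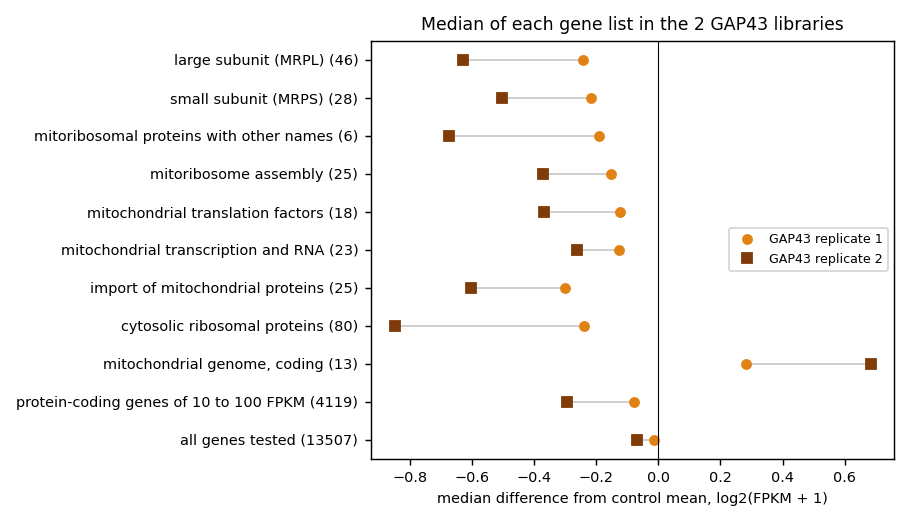
For each gene list (number of genes tested in brackets), the points give the median difference of GAP43 replicate 1 and of GAP43 replicate 2 from the control mean, in log2(FPKM + 1). Lists of nuclear genes lie left of 0 with GAP43 replicate 2 further out, at -0.63 for MRPL and -0.50 for MRPS, and the coding genes of the mitochondrial genome lie right of 0, at 0.28 and 0.68.

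The medians of the MRPL, MRPS and other mitochondrial lists named above kept their sign under the other scalings, the smaller pseudocount and voom. Differences between lists share all 4 libraries and were not tested, and no list was compared with a set test. All lists had been chosen with earlier results of these libraries known, so their counts are a description and no independent evidence of a direction.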

How the data were processed

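RNA-seq was measured in 2 GAP43 and 2 control libraries of SW620 cells. Per the labels and the study's methods, poly(A) RNA was primed with random hexamers and sequenced as paired ends. The authors deposited FPKM values per gene and library, and the submitters' processing notes list hg19 as build, with TopHat2 2.0.13, Cufflinks 1.1 and Cuffdiff as tools. Which tool counted, with which annotation and whether by strand, is not given in the sources used here. GENCODE release 29 (GRCh38) holds 33057 of the listed IDs, 96.5% of them with an identical start, so positions are those of GRCh38. FPKM times gene length gave whole fragments (within 0.01) for 100% of values above 0. The library denominators this implies, 19322583 to 22048135 fragments, are not the summed fragments, so the deposited FPKM hold a library scaling beyond depth. In GAP43 replicate 2 the denominator was above the summed fragments (19517128 against 17473071), which lowers its FPKM. In control replicate 2 it was below them (19322583 against 20843857), which raises its FPKM. Both shifts go towards lower fold changes. In replicate 1 of each group these values were closer. The shares of recovered fragments are free of this scaling, and no fit used the summed fragments as library sizes. Voom took the denominators as library sizes, so its fit holds that scaling too. The libraries carried no molecular identifiers, so fragments can be copies of a molecule.

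Genes averaging 1 FPKM or more over the 4 libraries were compared on log2(FPKM + 1) with limma 3.58.1 (R 4.3.3; trended empirical Bayes, 2-sided, no block, Benjamini-Hochberg adjustment over 13507 genes). The design used the 4 libraries with no covariate. With 2 against 2 samples the smallest p of an exact permutation test is 0.333. Each library was left out in turn, and the fit was repeated with a replicate block, a smaller pseudocount, 2 other filters, 2 other scalings, protein-coding genes alone, an untrended prior and voom on recovered fragments. Figures were drawn with matplotlib 3.10.9.

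Members, gene lists and tests were chosen with earlier results of these data known. Genes named are all members with an unadjusted p under 0.05, the 3 highest in level and in log2 fold change of each subunit, those below the filter, the stalk genes, the MRPS18 paralogs, MRPS30, GAP43 and up to 3 genes with the smallest p of each other list. Other members named as parts of a structure, or for their overlap or motifs, were chosen after their values were seen. Roles and origins of proteins were assigned from general knowledge. Promoter sequences are from RefSeq (GRCh38.p14). For MRPL2, MRPL10, MRPL13, MRPL15, MRPL21, MRPL23, MRPL35, MRPS28 and MRPS36 none was used here.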

Additional observations from a re-analysis of the deposited data

How the results depend on the processing

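The medians of both subunits stayed below 0 under every alternative run. Leaving out a library moved the MRPL median between -0.63 and -0.24 and the MRPS median between -0.50 and -0.22, the weaker end in each case without GAP43 replicate 2. Of all genes, 795 passed an unadjusted p under 0.05, against 1746 without a filter, 505 with a mean of at least 5 FPKM, and 347 to 4078 without 1 library. In these runs the number of lower MRPL genes ran from 1 to 41 and of lower MRPS genes from 0 to 16, with the fewest without control replicate 2. FPKM divided by its sum left 1 lower MRPS gene, and split the calls over all genes into 577 higher and 213 lower, in place of 412 and 383. With mean of at least 5 FPKM the split was 155 and 350, and with protein-coding genes alone 223 and 418. The replicate block gave 1035 genes, 152 of them at an adjusted p under 0.05 and no member among these. It gave 6 lower MRPL and 4 lower MRPS genes. The labels give the groups the same replicate numbers, and same-numbered libraries deviated with a correlation of -0.16. With 2 libraries per group, the crossed pairing takes the opposite value by construction. The correlation therefore cannot decide whether same-numbered libraries belong together. The crossed replicate pairing, added after seeing the data, gave 1405 genes, with 20 lower MRPL and 8 lower MRPS genes. No lower member changed sign. MRPL12 kept its side of the threshold in all 10 other settings and without each library in turn, and MRPL1 did in those 10 and in 3 of 4 runs without 1 library. MRPS9 kept it in 4 of 10. The SD of the list median between libraries of a group, pooled over both groups, was 0.198 for MRPL and 0.153 for MRPS (log2 scale, n = 2 in each group). Most of this spread lay in the GAP43 group. Its library medians were -0.24 and -0.63 for MRPL and -0.22 and -0.50 for MRPS. The control medians differed by 0.086 for MRPL and 0.103 for MRPS.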

Other observations

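MRPL23-AS1, an antisense RNA gene at the locus of the large subunit gene MRPL23, had 4.60 and 4.69 FPKM in the controls and 4.18 and 12.9 FPKM in the GAP43 libraries (log2 fold change 0.59, unadjusted p of 0.22 by limma). GAP43 replicate 2 stood above the other 3 libraries, whereas MRPL23 itself was lowest there. Whether fragments were counted by strand is not given in the sources used here, so reads of the pair cannot be told apart.

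MRPS31P5 and MRPS31P4, transcribed copies of the small subunit gene MRPS31, had means of 0.633 and 0.731 FPKM over the 4 libraries, against 8.90 and 10.8 FPKM in the control and 9.52 and 10.0 FPKM in the GAP43 libraries for MRPS31. How fragments shared by near-identical copies were counted is not given in the sources used here, so the value of MRPS31 is uncertain to that extent.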
